A study of Saccharomyces cerevisiae with 4 samples.

Results

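FRE1 to FRE8, the metalloreductase genes of budding yeast, and MAC1, the gene of the copper-sensing activator, were followed in the mutant nps1-13 and in WT. They are the 9 genes of the family list whose symbols the array annotation gives, each with 1 probe set, among 5343 genes measured. In Saccharomyces cerevisiae, Fre proteins are flavin- and heme-containing membrane enzymes that pass electrons from NADPH to ferric iron, siderophore-bound iron or cupric copper, and so make the metal available to transporters. In textbook accounts, Aft1 and Aft2 activate most of the family when iron is scarce. Mac1 activates FRE1, FRE7 and the high-affinity copper transporter genes when copper is scarce.

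The methods give the nps1-13 cells as the diploid strain BYI-3. It is listed with the mutant allele of the RSC ATPase gene NPS1 (STH1) in both copies and met15Δ0 in both copies. The WT cells are given as the diploid strain BY4743, listed with 1 deleted copy each of MET15 and LYS2. Markers that differ from the listed genotype of nps1-13 are given below. The strain list of the study gives both strains as MATa/α, with his3Δ1, leu2Δ0 and ura3Δ0 on both homologues. Cells grown in glucose medium were put into YPEG, a medium with ethanol and glycerol as carbon sources, for 4 h at 28°C. RNA of each strain was hybridized to 2 one-colour Affymetrix arrays. Whether replicate arrays came from separate cultures is not given in the sources used here, so the p-values measure only the spread between these arrays. In RNA of whole cultures, fewer cells with a transcript and less transcript per cell cannot be told apart.

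The median signal was 2158 and 2024 on the nps1-13 arrays and 3051 and 2770 on the WT arrays, so the deposited signals were not at 1 scale. The median gene was at -0.41 (log2, nps1-13 over WT) as deposited. Each array was therefore centred on its median log2 signal, which added 0.48 to every log2 fold change and left the median gene at 0.066. Fold changes below are on this centred scale unless another is named, and signals are as deposited. The strain markers matched the listed genotype of nps1-13 in part. LEU2 had signals of 4446 and 4225 in nps1-13, against 14.0 and 37.1 in WT, and HMRA1, which detects the a1 transcript of a cells and a/α diploids, had 0.9 and 6.1 in nps1-13 against 1599 and 1896 in WT. All 5 alpha-cell markers and all 6 haploid markers examined were higher in nps1-13 on every scale. A further 6 markers were HMRA1 and the a-cell genes MFA1, MFA2, STE2, STE6 and BAR1, of which only HMRA1 also marks a/α diploids. HMRA1, STE2 and STE6 were lower and the other 3 did not pass the test (4 lower and 2 not passing as deposited). The summed signal of the alpha-cell markers was 14471 to 14836 in nps1-13 and 1450 to 1681 in WT. LEU2, HMRA1, the alpha-cell markers and the haploid markers thus differ from a MATa/α diploid without LEU2. MET17 (MET15) had 17.7 and 16.0 in nps1-13 and 4039 and 3883 in WT, as the genotype lists it. LYS2 had 1371 and 1227 in nps1-13 and 1371 and 1208 in WT. Its log2 fold change was 0.0115 as deposited, where it did not pass. It passed as higher when centred (0.49), with equal trimmed means (0.36) and by quantiles (0.63). STH1 (NPS1), the mutated gene, had 7419 and 6524 in nps1-13 and 5017 and 4373 in WT and was higher on all 4 scales, which does not check the allele. These differences between the strains lie alongside every change given below, and their part in it was not tested.

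FRE7 was the member with the largest change. It encodes a putative cupric reductase and is a textbook target of Mac1. Its signal was 454 and 438 on the nps1-13 arrays, against 9200 and 7771 on the WT arrays, with means of 446 ± 11.5 in nps1-13 and 8485 ± 1011 in WT (SD, n = 2 each). Both WT arrays were thus far above both nps1-13 arrays. Limma put the log2 fold change at -3.77 (standard error 0.059, adjusted p = 1.8e-10 from limma), with a 95% interval of -3.90 to -3.63. This was a 13.6-fold lower level on the centred scale, and 19.0-fold lower in the deposited signals. Only 5 of the 5343 genes had a lower log2 fold change, FRE7 being at rank 6 of the decreases. The value was between -4.24 and -3.68 over 13 other settings of the processing, and it passed the test in each.

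FRE1 and FRE3 fell as well, by much smaller steps. FRE1, the main ferric and cupric reductase of the cell surface, had 4672 and 4402 on the nps1-13 arrays, against 10166 and 8977 on the WT arrays. Its log2 fold change was -0.60 (standard error 0.047, adjusted p = 2.2e-06 from limma), a level 1.51-fold lower on the centred scale and 2.11-fold lower as deposited. FRE3, a reductase of siderophore-bound iron, had 1228 and 1128 in nps1-13 and 2763 and 2556 in WT. Its log2 fold change was -0.70 (standard error 0.056, adjusted p = 2.5e-06 from limma), a level 1.62-fold lower on the centred scale and 2.26-fold lower as deposited. Neither gene overlapped between the strains, with or without centring, and 89.3% of all genes did not overlap when centred. Both passed as lower under each of the 13 other settings, in a range of -1.07 to -0.58 for FRE1 and of -1.18 to -0.64 for FRE3. Of all genes, 14.1% had a lower log2 fold change than FRE1 and 10.8% a lower one than FRE3.

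**Figure D1:**
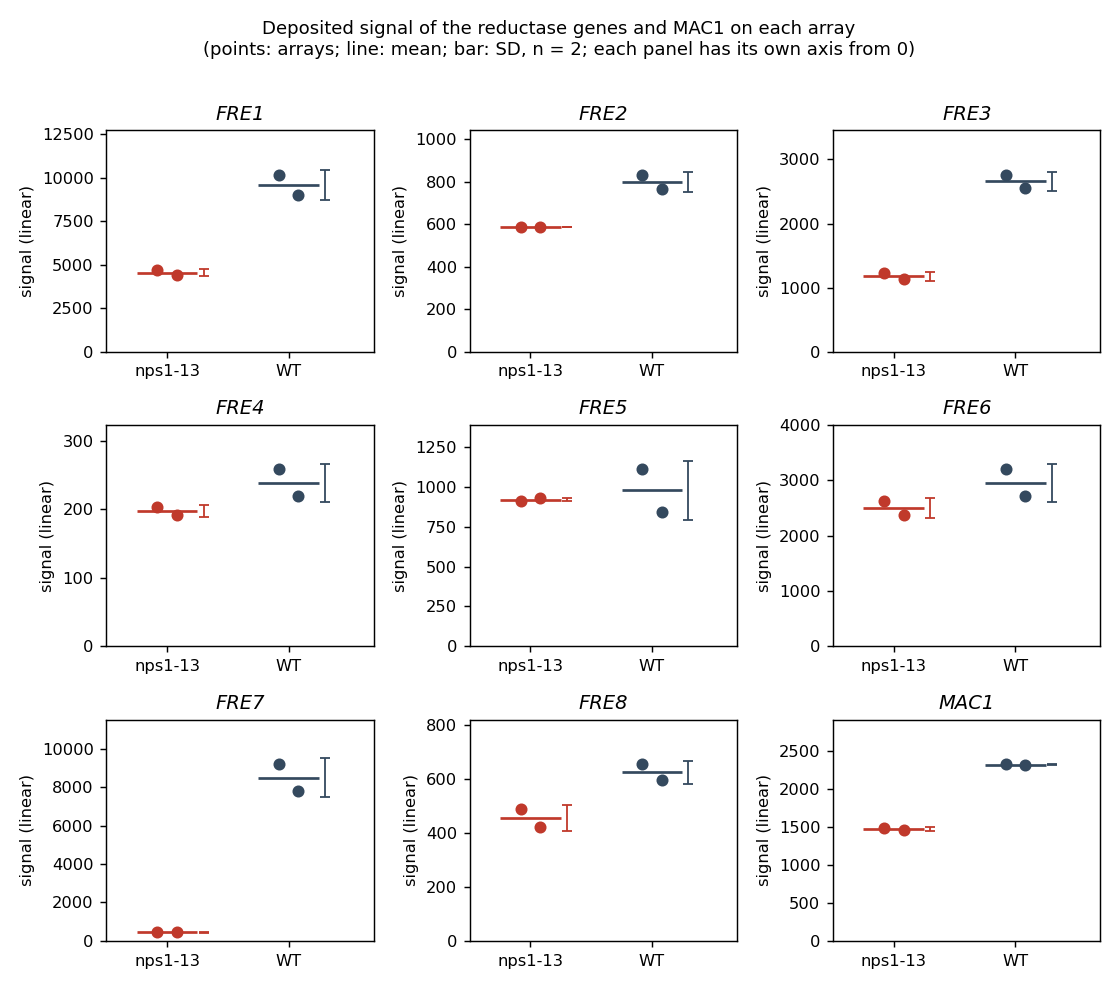
Deposited signal (linear scale) of the 8 FRE genes and MAC1, with nps1-13 in red on the left and WT in dark blue on the right of each panel. Points are arrays, lines are means and bars are the SD of 2 arrays. FRE7 had 454 and 438 in nps1-13 against 9200 and 7771 in WT, whereas the FRE5 arrays of nps1-13, with 913 and 928, lay between those of WT, with 1111 and 845.

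MAC1 itself changed little on the centred scale. Its signal was 1488 and 1451 in nps1-13, against 2324 and 2310 in WT. The deposited signals did not overlap, and most of their difference was the offset between the arrays. On the centred scale its log2 fold change was -0.18 (standard error 0.064, 95% interval -0.32 to -0.038, adjusted p = 0.025 from limma). This call was lost without WT replicate 2 (-0.12), without nps1-13 replicate 1 (-0.15) and after quantile normalization (-0.12, adjusted p = 0.13 from limma). It held in the other settings. MAC1 was at -0.31 with equal trimmed means and at -0.66 as deposited (adjusted p = 0.0010 and 6.0e-07 from limma). The FRE7 and FRE1 probe sets can also be set against that of MAC1 within each array, where a common scaling factor drops out. The log2 ratio of FRE7 to MAC1 was -1.71 and -1.73 in nps1-13, against 1.99 and 1.75 in WT, and that of FRE1 to MAC1 was 1.65 and 1.60 in nps1-13, against 2.13 and 1.96 in WT. The ratio of FRE7 to MAC1 thus differed by -3.59 between the strains, and that of FRE1 to MAC1 by -0.42 (log2, nps1-13 minus WT), with no overlap of the arrays. The ratio of FRE7 to FRE1 was -3.36 and -3.33 in nps1-13, against -0.14 and -0.21 in WT, so both genes changed unequally. An exact permutation test of 2 arrays against 2 gave p = 0.333 (two-sided) for each ratio, the smallest that this design allows. These ratios were chosen after the values were seen.

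FRE5 and FRE6 were higher on the centred scale, and their direction depended on the scaling. FRE6, a reductase of the vacuolar membrane, had 2637 and 2375 in nps1-13 and 3202 and 2710 in WT. Its log2 fold change was 0.24 (standard error 0.055, adjusted p = 0.0027 from limma), but 0.11 with the arrays scaled to equal trimmed means, where it did not pass, and -0.24 as deposited, where it did not pass either. FRE5, a putative reductase gene induced by low iron, had 913 and 928 in nps1-13 and 1111 and 845 in WT. Its log2 fold change was 0.40 (standard error 0.095, adjusted p = 0.0034 from limma), 0.27 with equal trimmed means and 0.58 by quantiles, where it passed, and -0.074 as deposited, where it did not. The WT arrays differed more from each other in FRE5 than the strain means did in the deposited signals.

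FRE2, FRE4 and FRE8 did not pass the test on the centred scale. FRE2, a ferric and cupric reductase of the cell surface, had 585 and 586 in nps1-13 and 834 and 766 in WT, with a centred log2 fold change of 0.027 and a 95% interval of -0.16 to 0.21. FRE4, a siderophore reductase gene, had 204 and 192 in nps1-13 and 259 and 219 in WT, with 0.21 and an interval of -0.082 to 0.50. FRE8, a member of the family whose substrate is less well known, had 489 and 421 in nps1-13 and 654 and 594 in WT, with 0.019 and an interval of -0.19 to 0.23. In the deposited signals the arrays of the strains did not overlap in FRE2, FRE4 and FRE8, nps1-13 being lower. On that scale the median gene was at -0.41 and 64.3% of all genes were called lower, while overlap over all genes was not counted. After centring, the arrays of the strains overlapped in FRE2 and FRE8. In FRE4 they did not, nps1-13 then being above WT, as in 49.0% of all genes. FRE2 and FRE8 were called lower as deposited (-0.45 and -0.46, adjusted p = 0.0021 and 0.0027 from limma), and FRE2 was called higher after quantile normalization (0.21, adjusted p = 0.036), so no direction is given for either.

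As a family, 2 of the 9 genes were higher, 4 lower and 3 did not pass. Over all 5343 genes, 42.7% were called higher, 34.6% lower and 77.4% either way, so the share of members called, 66.7%, lay near that of the background. As deposited, 0 members were higher and 6 lower, where 9.41% of all genes were called higher and 64.3% lower. With equal trimmed means 1 was higher and 4 lower, beside 33.0% and 43.2% of all genes, and after quantile normalization 3 were higher and 3 lower, beside 36.4% and 37.7%. The centred arrays of the strains did not overlap for 7 members, as for 89.3% of all genes. Among the members nps1-13 was above WT in 3 of these and below it in 4, and among all genes in 49.0% and 40.3%. The median log2 fold change of the members was 0.019, beside 0.066 for all genes. With the 2-fold cutoff that the methods used, set here on the mean centred signals, FRE7 was the only member below 0.5, as were 4.96% of all genes, and no member was above 2, as were 4.88%. On the deposited signals FRE1, FRE3 and FRE7 were below 0.5, as were 16.7% of all genes, and again no member was above 2, as were 1.98%. FRE1, FRE3 and FRE7 were the members that passed the test as lower in the centred fit and in each of its 13 alternatives.

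**Figure D2:**
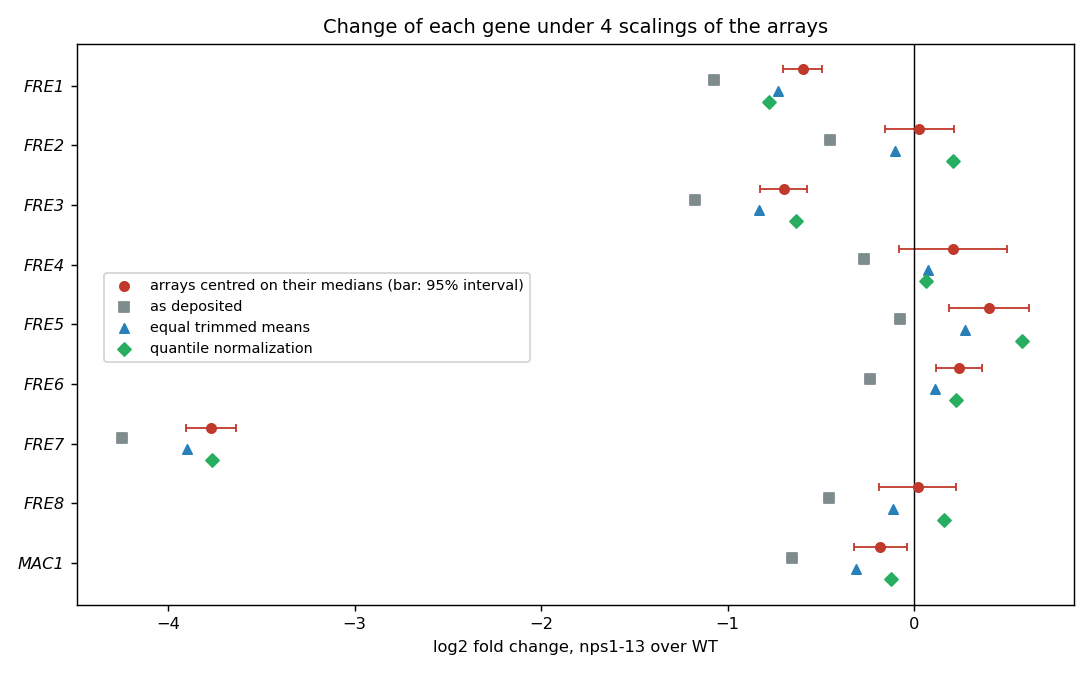
Log2 fold change (nps1-13 over WT) of each member under 4 scalings of the arrays; the bars on the red points are 95% intervals from limma on the centred scale. FRE7, FRE3 and FRE1 lay below 0 on each scale, at -3.77, -0.70 and -0.60 when centred, while FRE5 and FRE6 were above 0 when centred and below 0 as deposited.

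The other textbook targets of Mac1 were lower too, with 1 exception. Of a list of 6, 5 were lower (83.3%, beside 34.6% of all genes) and 1 did not pass, with a median of -0.68. This count, share and median include FRE1 and FRE7, which were already given above as lower. Of the 4 targets outside the members, CTR1, CTR3 and IRC7 were lower and REE1 did not pass. CTR3, a high-affinity copper transporter gene, had 729 and 733 in nps1-13 and 1878 and 1573 in WT, and changed by -0.76 on the log2 scale (standard error 0.0745). CTR1, the other such transporter gene, had 9222 and 9128 in nps1-13 and 16747 and 15259 in WT, with -0.32 (standard error 0.058). In both genes each nps1-13 array was below each WT array. IRC7, which encodes an enzyme that cleaves the carbon-sulfur bond of cysteine, had 391 and 430 in nps1-13 and 1284 and 1044 in WT, with -1.02 (standard error 0.10). REE1, linked to the regulation of enolase, had 14701 and 13365 in nps1-13 and 18166 and 17401 in WT, with 0.13 and an adjusted p of 0.083 from limma. These REE1 signals, and those of CTR1 in WT, were high beside the array maxima of 20490 to 23318. CTR1, CTR3 and IRC7 passed as lower on all 4 scales, while REE1 was at -0.34 as deposited and -0.20 by quantiles, where it passed as lower, and at 0.0016 with equal trimmed means, where it did not. The list thus had 6 lower as deposited and by quantiles and 5 with equal trimmed means. Over all genes, 64.3%, 37.7% and 43.2% were called lower on these scales, in that order. AIM14, a relative of the reductases known as an NADPH oxidase of the endoplasmic reticulum, was at -0.22 (adjusted p = 0.040 from limma), which did not pass after quantile normalization (-0.16, adjusted p = 0.11).

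The genes of iron uptake that work beside the reductases were called in shares near those of all genes. Of 17 genes, chosen mainly as targets of Aft1 and Aft2, 8 were higher (47.1%, beside 42.7% of all genes), 6 lower (35.3%, beside 34.6%) and 3 did not pass, with a median of 0.075 (3 and 9 as deposited, 8 and 7 with equal trimmed means, 6 and 8 by quantiles). HMX1, the heme oxygenase gene, had 8400 and 8499 in nps1-13 and 4270 and 4103 in WT, a change of 1.49 (log2, standard error 0.0555). TIS11, whose product targets mRNAs of iron-using proteins for decay, was at 0.77, and both genes rose on all 4 scales. ENB1, the transporter gene for the siderophore enterobactin, was at -0.79 and fell on all 4 scales. LSO1 was at -1.39 with signals under 100 on every array, where the size of a change cannot be read. The oxidase FET3 and the permease FTR1, which together take up the iron that surface reductases release, were chosen after their values were seen. They were at -0.21 and -0.57 and fell on all 4 scales.

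Of 12 copper handling genes, 6 were higher (50%, beside 42.7% of all genes), 3 lower (25%, beside 34.6%) and 3 did not pass, with a median of 0.0305 (1 and 8 as deposited, 4 and 6 with equal trimmed means, 4 and 4 by quantiles). COX17, which carries copper to cytochrome c oxidase assembly, was at -0.65, and CCC2 and ATX1, the Golgi copper ATPase that loads Fet3 and the chaperone that feeds it, were at -0.60 and -0.52. COX23, a relative of COX17, had 3687 and 3314 in nps1-13 and 2009 and 1941 in WT, a change of 1.30 (log2, standard error 0.055). The direction of these 4 genes held on all 4 scales. Of 4 targets of Cup2, the activator that responds to high copper, 2 were measured under their names. The metallothionein gene CRS5 fell, at -0.39, on all 4 scales, and the superoxide dismutase gene SOD1 was at 0.40, but at -0.078 as deposited and 0.048 by quantiles, where it did not pass. The SOD1 signals, 15464 to 17378, were likewise high beside the array maxima.

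Among 9 low-affinity and broad metal transporter genes, 4 were higher (44.4%, beside 42.7% of all genes), 4 lower (44.4%, beside 34.6%) and 1 did not pass, with a median of -0.11 (1 and 7 as deposited, 2 and 5 with equal trimmed means, 2 and 4 by quantiles). FET4, the low-affinity transporter gene for iron, copper and zinc, had 128 and 109 in nps1-13 and 3622 and 3283 in WT, a change of -4.39 (log2, standard error 0.088). SMF1, a manganese transporter gene, was at -0.97 and fell on all 4 scales, and CCC1, the vacuolar iron importer gene, was at 0.76 and rose on all 4. ZRT2, a zinc transporter gene, was at 0.63 and did not pass as deposited. Of 10 regulators of iron and copper genes, 7 were higher (70%, beside 42.7% of all genes), 2 lower (20%, beside 34.6%) and 1 did not pass, with a median of 0.35 (1 and 4 as deposited, 6 and 2 both with equal trimmed means and by quantiles). YAP5, an activator at high iron, rose on all 4 scales, at 0.87 when centred. BOL2, which takes part in iron sensing with the glutaredoxins, and ROX1, the repressor of hypoxic genes, fell on all 4, at -0.79 and -0.67. CUP2 was at 0.56 and did not pass as deposited.

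**Figure D3:**
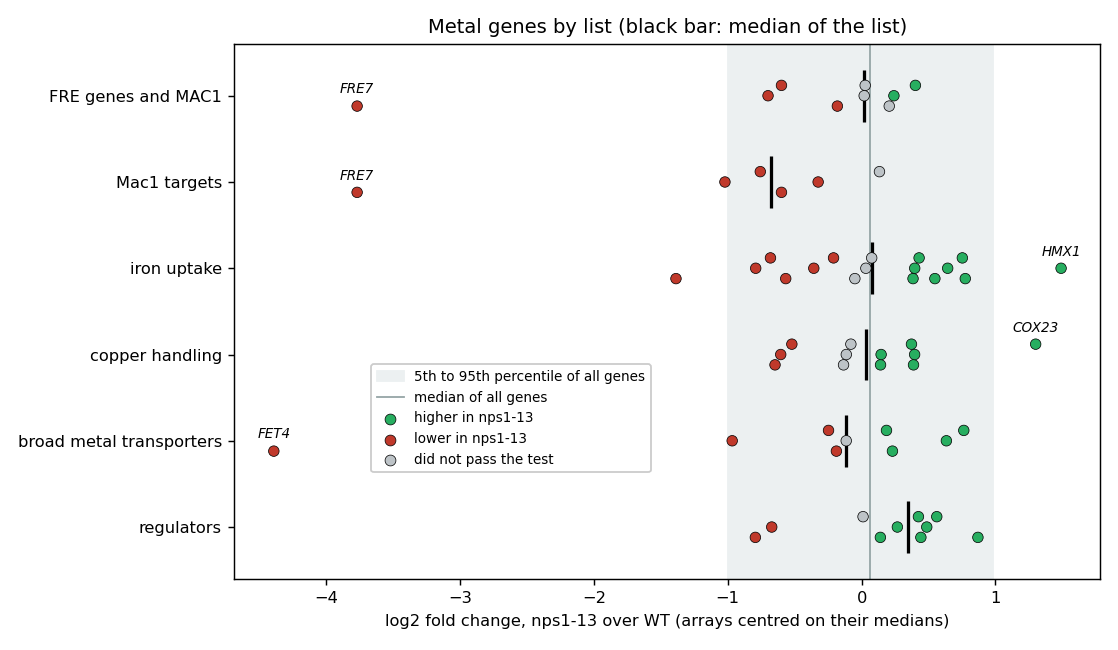
Log2 fold change (nps1-13 over WT, arrays centred) of each gene by list, coloured by the call, with the median of each list as a black bar and the range from the 5th to the 95th percentile of all genes in grey. FRE7 and FET4 lay at -3.77 and -4.39, to the left of the grey range. The Mac1 targets, which include FRE1 and FRE7, had a median of -0.68. The other lists shown had medians between -0.11 and 0.35.

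By gene order in the R64 reference table, FRE2 had 3 annotated genes between it and the nearer chromosome end, FRE5 11, FRE3 and FRE6 15 each, FRE7 17 and FRE4 18, whereas FRE8, MAC1 and FRE1 had 114, 173 and 262. Of 35 genes within 2 places of a member, 32 were measured under their names, and 9 were higher, 16 lower and 7 did not pass (1 and 23 as deposited, 9 and 17 with equal trimmed means, 6 and 14 by quantiles), where 42.7% of all genes were called higher and 34.6% lower on the centred scale. FRE7, at -3.77, lay between YOL153C, which was not analysed here, and GRE2 at -0.21. Beyond YOL153C lay ZPS1 at 0.51, and beyond GRE2 lay DCP1 at 0.018. On chromosome XV, FRE3 and FRE5 flank the genes of the cell-wall mannoproteins FIT2 and FIT3, which help to retain siderophore iron. Between FRE3 and FIT2 lies YOR381W-A, at -0.47 (adjusted p = 0.084 from limma), whose nps1-13 signals were under 100. FIT2 and FIT3 were at 0.40 and 0.43 when centred, but at -0.080 and -0.047 as deposited and at 0.013 and 0.068 by quantiles, where neither passed, so that their centred values were close to the 0.48 that centring added. Their signals, 15784 to 20191, lay near the array maxima of 20490 to 23318. FRE5, at 0.40 when centred, passed by quantiles (0.58) and not as deposited (-0.074). FIT2 had 18218 and 18955 in nps1-13 against 20191 and 19101 in WT. The log2 ratio of FRE3 to FRE5 within an array was 0.43 and 0.28 in nps1-13, against 1.31 and 1.60 in WT (exact permutation test, two-sided, p = 0.333), a pair chosen after the values were seen. Beyond FRE5, YOR385W was at -0.49 and the photolyase gene PHR1 at -1.60. Of the neighbours of FRE2, which itself did not pass, COS9 was at -0.91, and the transporter homologue MCH2 was higher, with 238 and 249 in nps1-13 against 70.7 and 71.4 in WT, too dim in WT for the size of the change to be read. Around FRE1, TUB4, CDC123 and CPR6 were at -0.42, -0.40 and -0.22 and CRR1 at 0.32. Around MAC1, STB4 and UBC7 were at -0.43 and -0.44, and FMS1 and MSS1 at 0.34 and 0.51. Beside FRE4, MNT4 and YNR061C were at -0.81 and -0.19. Beside FRE6, YLL053C and AQY2 were at -0.31 and -0.27 and COF1 at 0.28. STU2, YLR046C and RPS0B, beside FRE8, were at -0.63, -0.26 and -0.32. YKL222C, near FRE2, was at 0.38.

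**Figure D4:**
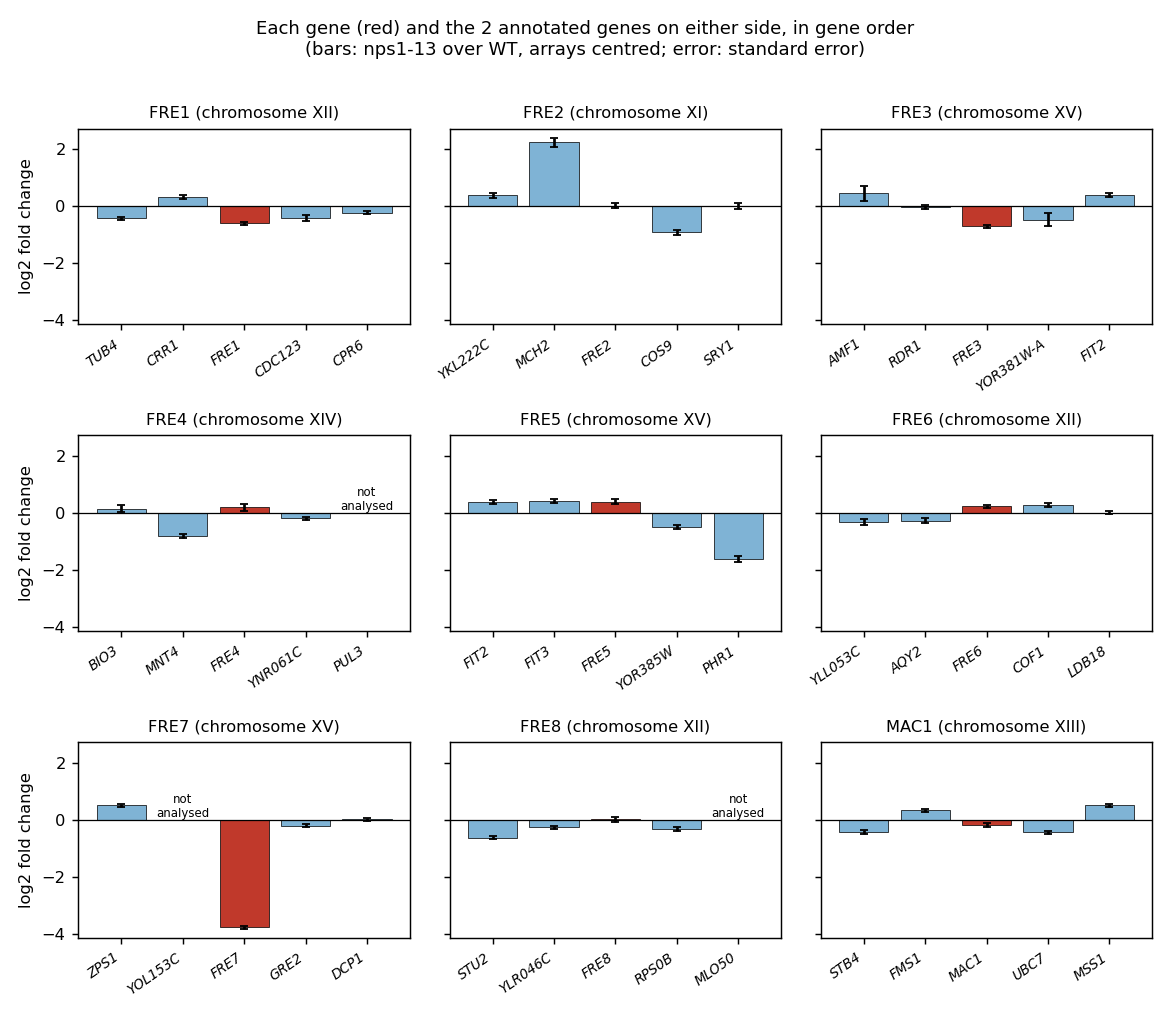
Log2 fold change (nps1-13 over WT, arrays centred; error bars are standard errors from limma) of each member, in red, and of the 2 annotated genes on either side, in blue and in gene order. FRE7 at -3.77 stood between YOL153C, not analysed, and GRE2 at -0.21, with ZPS1 at 0.51 beyond YOL153C. FRE3 at -0.70 was followed by YOR381W-A at -0.47, which did not pass, and FIT2 at 0.40.

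The genes whose pattern over the 4 arrays was closest to that of FRE7 were CLB6, YIR042C and FET4. Likeness was the Euclidean distance between the centred log2 signals, less the mean of each gene, and was 0.152, 0.611 and 0.640. CLB6, an S-phase cyclin gene, had 47.7 and 48.9 in nps1-13 and 923 and 754 in WT. YIR042C had 64.0 and 57.1 in nps1-13 and 767 and 762 in WT. For FRE5 the closest genes were SAP30, PUT3 and TRL1, at distances of 0.046, 0.054 and 0.057, each with WT replicate 1 as its brightest array in the deposited signals. With 4 arrays in 2 strains, likeness reflects mainly the difference between the strains and the offset between replicates.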

How the data were processed

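The deposited intensity values are linear signals per probe set of one-colour Affymetrix Yeast Genome 2.0 arrays, made by the authors with GCOS (default analysis and global scaling, per the methods). Trimmed means of the 4 arrays nevertheless ran from 3157.6 to 4284.7. Probe sequences and detection calls were not used here, and of 5558 probe sets 167 to 213 per array were under 100. The platform annotation gave 1 symbol for 5345 probe sets, several for 0 and none for 213. All 5343 genes matched the RefSeq table of R64 by gene ID, and for 2 genes with more than 1 probe set the brightest was used.

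Arrays were centred on their median log2 signal and fitted with limma 3.58.1 under R 4.3.3 (lmFit, then eBayes, its variance trend following the signal). A gene was called at a Benjamini-Hochberg adjusted p under 0.05, adjusted over all 5343 genes. The fit was tested on simulated data. Alternatives were the deposited scale, equal trimmed means (2% left out at each end), quantiles, 32 added to each signal, minimum mean signals of 100 and 200, no trend, the mean of probe sets, a replicate block, and each array left out; lists and neighbours were recounted under the scalings alone. Members, lists and tests were chosen with earlier results of these data known. Named genes are the members, the Mac1 targets, AIM14, the 2 to 4 most changed genes of each other list, called neighbours, the 3 genes most like FRE7 and FRE5, and strain markers; the text says which others were picked once their values were known, and a few are neighbours that were not called. Python 3.11.15, pandas 2.3.3 and matplotlib 3.10.9 were used. The number of arrays limits the precision.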

Additional observations from a re-analysis of the deposited data

How the results depend on the processing

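FRE1, FRE3 and FRE7 stayed lower and past the threshold under all 13 alternative fits. As deposited, 0 members were higher, against 2 when centred, and over all genes 503 were higher and 3435 lower, so that 12.8% of the calls were higher, against 2283 and 1850 (55.2%) when centred; with equal trimmed means 1 member was higher (43.3% of all calls), and after quantile normalization 49.1% of all calls were higher. As deposited, 6 genes of the fixed lists outside the members were higher and 34 lower, against 26 and 20, and 1 neighbour was higher, against 9. By the 2-fold ratio of the centred signals 0 members were higher and 1 lower, and 261 and 265 of all genes; by that of the deposited signals, added after seeing the data, 0 and 3 members, and 106 and 892 of all genes. The direction turned as deposited for FRE2 (-0.45), FRE4 (-0.27), FRE5 (-0.0745), FRE6 (-0.24) and FRE8 (-0.46). With equal trimmed means it turned for FRE2 (-0.10) and FRE8 (-0.11). Leaving out 1 array gave -0.0205 (without nps1-13 replicate 2) to 0.0739 for FRE2 and -0.0418 (without nps1-13 replicate 1) to 0.0802 for FRE8. FRE4 passed as higher without the trend (0.21, adjusted p = 0.021 from limma). Deposited, trimmed-mean and centred signals differ by 1 constant per array, so the turns between these scales follow from the offset between arrays. The turns of FRE2 and FRE8 on leaving out 1 array came in centred fits. Which scale is nearer to the transcripts per cell was not tested.

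The replicate numbers share only a number, since nothing in the labels ties equal numbers to a culture or day; the deviations of equally numbered arrays correlated with r = -0.12. With the replicate block, 2 members were higher and 4 lower, and 2249 and 1799 of all genes. With the numbers crossed, a setting added after seeing the data, the counts were 2 and 4, and 2313 and 1917. Signals under 100, as in LSO1, in CLB6, YIR042C and YOR381W-A in nps1-13 and in MCH2 in WT, do not resolve the size of a change.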
